A study of Rattus norvegicus with 8 samples.

Results

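The genes Cga, Tshb, Nmu, Pitx1, Tbx19, Lhb and Eya3 were described across the hypothalamus of 8 lactating rats. They were found on the array by their gene names, 7 of the 26269 gene names of its design, and 9 probes carry those names. They were chosen by measured values of these arrays, because the signals of Cga, Tshb and Nmu differed widely between them, so the width of that variation is given below as a description and not as a test. All 7 entered the group comparison, since each had a probe well above background on every TCDD array or on every control array, as did 16574 genes in all.

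The groups were 4 Wistar dams exposed to TCDD (the reference dioxin, a ligand of the aryl hydrocarbon receptor) and 4 control dams of the same strain, all lactating and sampled at postpartum day 7. The sources used here give no dose, route or time of exposure for the TCDD dams and no vehicle for the control dams. Each array held the RNA of 1 sample of whole hypothalamus. The study addressed the effect of dioxin exposure on the hypothalamic transcriptome of lactating dams.

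Values are log2 of the processed signal relative to the 75th percentile of that array, so 0 marks a probe as bright as that percentile and 1 unit is a doubling. The 75th percentile lay between 511 and 699 on the TCDD arrays and between 474 and 665 on the control arrays, and the log2 values of any pair of arrays correlated at r of 0.986 to 0.991 across probes. Oxt, Avp, Pmch, Hcrt, Trh and Sst, which mark hypothalamic neurons, were well above background on all 8 arrays. The TCDD arrays lay on one slide and the control arrays on another, each with a single scan, so slide and exposure cannot be told apart in any group difference below. Probes differ in brightness for equal RNA, so values are compared between arrays and not between genes.

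The pars tuberalis is the thin sleeve of anterior pituitary tissue that wraps the pituitary stalk and the underside of the median eminence, and it lies against the hypothalamus. Its thyrotrophs make the common glycoprotein hormone subunit and the thyrotropin beta subunit, and they respond to melatonin through the receptor encoded by Mtnr1a. Thyrotropin from these cells acts on tanycytes, which then alter the local supply of active thyroid hormone, and neuromedin U is also made in the rat pars tuberalis.

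The sequences just upstream of the transcription starts of Cga, Tshb and Nmu are shown because these 3 genes moved together between the arrays. Each is the 250 bases before the annotated start, read 5′ to 3′ on the strand of the gene, from RefSeq on build GRCr8. Of the 7 genes, 6 had a match in the promoter table, and Pitx1 had none. Capitals mark matches to 6 short motifs that were searched on both strands. TATAAA is the TATA box, near which transcription of many hormone genes starts. TGANGTCA resembles the cAMP response element, known from the human CGA promoter. AGATAA resembles the site of GATA factors, which take part in thyrotroph gene expression. CACGTG is the E-box bound by clock proteins. TTANGTAA resembles the D-box bound by TEF and its relatives. TAATCC resembles the site of PITX factors. No match overlapped another in these windows.
Cga, chr5:54283090-54283339, plus strand: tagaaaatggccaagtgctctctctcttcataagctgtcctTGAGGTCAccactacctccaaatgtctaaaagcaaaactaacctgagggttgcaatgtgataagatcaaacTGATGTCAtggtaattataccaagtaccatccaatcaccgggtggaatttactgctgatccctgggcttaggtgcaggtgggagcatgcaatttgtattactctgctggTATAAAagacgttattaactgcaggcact
Tshb, chr2:192918055-192918304, minus strand: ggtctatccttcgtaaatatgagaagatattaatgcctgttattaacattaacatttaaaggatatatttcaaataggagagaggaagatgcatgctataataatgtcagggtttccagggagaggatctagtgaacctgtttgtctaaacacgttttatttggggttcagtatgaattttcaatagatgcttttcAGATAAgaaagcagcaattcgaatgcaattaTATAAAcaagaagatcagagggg
Nmu, chr14:32198693-32198942, plus strand: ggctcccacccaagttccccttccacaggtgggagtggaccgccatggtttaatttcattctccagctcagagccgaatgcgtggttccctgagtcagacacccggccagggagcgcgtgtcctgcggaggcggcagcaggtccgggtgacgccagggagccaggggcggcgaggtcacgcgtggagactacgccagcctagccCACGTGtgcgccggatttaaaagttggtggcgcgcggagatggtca

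The Cga window held TGANGTCA starting at base -209 and again at base -138, and TATAAA at base -29, counted from the start site. The Tshb window held AGATAA at base -54 and TATAAA at base -23, and the Nmu window held CACGTG at base -46. No motif was found in all 3 windows. Among 33469 rat windows of the same length, TATAAA occurred in 12.9%, AGATAA in 10.3%, TGANGTCA in 8.88%, TAATCC in 6.34%, CACGTG in 5.59% and TTANGTAA in 2.04%. A match describes the letters of the window and is not evidence of binding.

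Cga, which encodes the alpha subunit shared by thyrotropin, luteinizing hormone and follicle-stimulating hormone, was the most variable of the 7 genes. Its probe (A_64_P085680, chr5:51550265-51550324 on build rn4, plus strand) read 1.59, 5.90, -1.80 and 5.29 on TCDD arrays 1 to 4, against 1.44, -3.47, 1.69 and 5.59 on control arrays 1 to 4. TCDD 2, TCDD 4 and control 4 were high, TCDD 3 and control 2 were low, and the other 3 arrays lay between, so the groups overlapped throughout. The brightest array, TCDD 2, had a processed signal of 38268 units and the dimmest, control 2, had 55.2 units. After scaling each array to its 75th percentile, the difference between them was 665-fold. Both were well above background, and the probe was not saturated on any array.

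Tshb, which encodes the beta subunit that gives thyrotropin its specificity, followed the same arrays. Its probe (A_64_P017313, chr2:197908322-197908381, minus strand) read -1.25, 2.65, -2.44 and 2.31 on TCDD arrays 1 to 4, against -1.38, -6.70, -2.75 and 2.32 on control arrays 1 to 4. The same 3 arrays were high as for Cga, at nearly the same level, and the groups overlapped. On control 2 the probe was not well above background, so its value there bounds the level from above. Over the other 7 arrays, the highest and the lowest value differed by 5.39 log2 units.

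Lhb, which encodes the beta subunit of luteinizing hormone, varied over a much smaller range. Its probe (A_42_P538135, chr1:95893918-95893977, plus strand) read -1.15, -0.38, -1.10 and -0.67 on TCDD arrays 1 to 4, against -0.94, -1.27, -1.17 and -0.15 on control arrays 1 to 4. Control 4, TCDD 2 and TCDD 4 were again the highest arrays and control 2 the lowest, and the groups overlapped. Fshb, the beta subunit of follicle-stimulating hormone, was not well above background on any array.

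Nmu encodes neuromedin U, a peptide that acts on smooth muscle, feeding and stress responses. Its brighter probe (A_64_P050951, chr14:34136495-34136554, plus strand) read -2.59, 0.38, -3.34 and -0.08 on TCDD arrays 1 to 4, against -2.67, -3.39, -2.79 and 0.40 on control arrays 1 to 4. The values fell into a high set (TCDD 2, TCDD 4 and control 4) and a low set of the other 5 arrays, with both groups in each set. The largest distance between arrays was 3.79 log2 units, or 13.8-fold.

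A second Nmu probe (A_64_P399235) was well above background on TCDD 2, TCDD 4 and control 4 and on no other array. It read -6.94, -3.00, -6.51 and -3.59 on TCDD arrays 1 to 4, against -5.91, -7.22, -6.58 and -3.28 on control arrays 1 to 4. Its 60 bases are placed over 6108 bases of the genome (chr14:34134018-34140125, rn4), so it crosses at least 1 intron, whereas the brighter probe lies in 60 contiguous bases. Both probes thus picked out the same 3 arrays (r = 0.977, rho = 0.810 over 8 arrays, which share the hybridisation and the scaling). Both are printed in lower case because they read different stretches of the transcript.
Nmu, A_64_P050951: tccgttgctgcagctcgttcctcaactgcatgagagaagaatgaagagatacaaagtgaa
Nmu, A_64_P399235: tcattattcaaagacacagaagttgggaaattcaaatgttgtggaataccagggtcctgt

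Pitx1, a homeodomain factor of the developing and adult anterior pituitary, was nearly constant. Its probe (A_43_P15339, chr17:14839404-14839463, plus strand) read -0.11, 0.08, -0.18 and -0.04 on TCDD arrays 1 to 4, against -0.31, -0.37, -0.33 and -0.14 on control arrays 1 to 4. The TCDD arrays sat higher, but TCDD 3 lay below control 4, so the groups overlapped by that single pair.

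Tbx19, the T-box factor of pituitary corticotrophs and melanotrophs, read -1.73, -1.45, -1.87 and -1.46 on TCDD arrays 1 to 4, against -1.45, -1.73, -1.84 and -1.08 on control arrays 1 to 4 (A_64_P026913, chr13:80890850-80890909, minus strand). Control 4 was the highest array and TCDD 3 the lowest, with full overlap between the groups. A second Tbx19 probe (A_64_P026908) was not well above background on any array.

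Eya3, a coactivator and phosphatase that takes part in the seasonal induction of Tshb in the sheep and mouse pars tuberalis, was dim and varied within a range of 0.68 log2 units. Its probe (A_44_P103170, chr5:152442692-152442751, minus strand) read -4.81, -4.34, -4.80 and -4.12 on TCDD arrays 1 to 4, against -4.74, -4.39, -4.50 and -4.44 on control arrays 1 to 4. The spread of the TCDD arrays enclosed all 4 control arrays. RefSeq on build GRCr8 places Eya3 on the plus strand of chr5, whereas its probe is given on the minus strand of rn4. Why the strands differ was not tested.

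**Figure D1:**
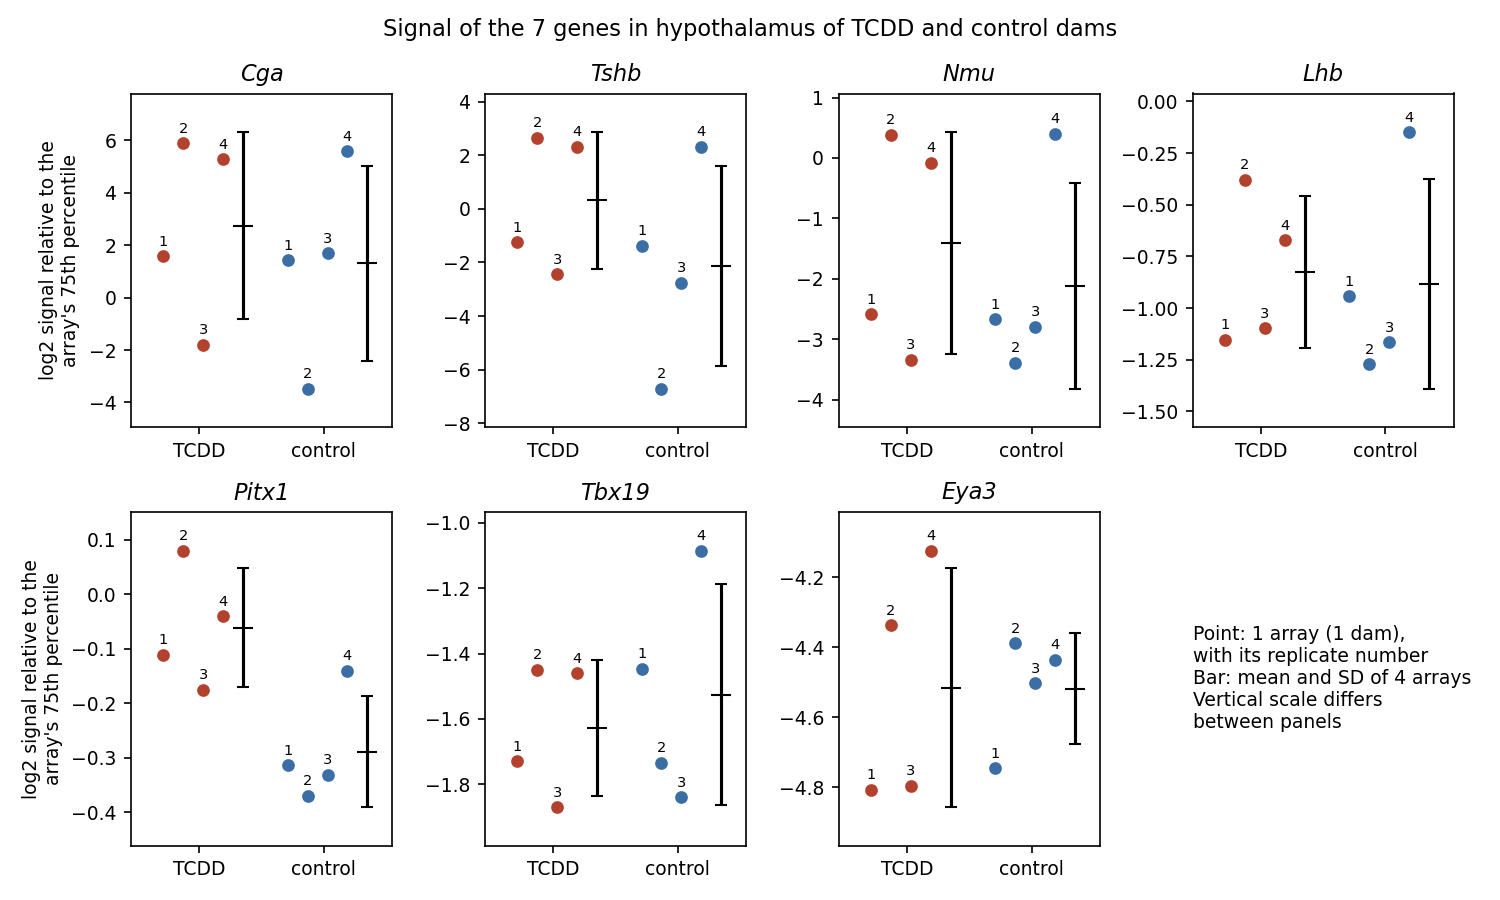
Log2 signal relative to the array's 75th percentile (vertical axes, with a different scale in each panel) for the 7 genes on each TCDD and control array; a point is 1 array with its replicate number, and the bar is the mean and SD of 4 arrays. For Cga, Tshb, Nmu and Lhb, TCDD 2, TCDD 4 and control 4 stand above the other arrays, and Cga spans 9.38 log2 units against 0.45 for Pitx1.

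The wide variation of Cga, Tshb and Nmu lay within the groups. Cga ranged over 7.70 log2 units among the TCDD arrays and 9.06 among the control arrays. Tshb ranged over 5.08 among the TCDD arrays and 9.02 among the control arrays, where control 2 is the array at background, and Nmu ranged over 3.72 and 3.79. Over all 8 arrays the range was 9.38 for Cga, rank 2 among the 17397 genes that were well above background on at least 3 arrays, and 9.35 for Tshb, rank 3, behind Prl at 10.1. The ranges of Tshb and Prl, and so these ranks, use arrays at background, 1 for Tshb and 4 for Prl. Nmu ranked 91, and the median gene had a range of 0.39. Lhb had a range of 1.12, Tbx19 0.79, Eya3 0.68 and Pitx1 0.45, all above that median. In bulk tissue, fewer cells of a type and less RNA per cell cannot be told apart.

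None of the 7 genes passed the group comparison, in which 3 of 16574 genes passed (0.0181%; limma, Benjamini-Hochberg adjusted p under 0.05). The mean of Cga was 2.75 ± 3.58 in TCDD and 1.31 ± 3.71 in control arrays (SD, n = 4 each), so the difference was 1.43 on the log2 scale (SE 2.20) and its limma adjusted p was 0.868. For Tshb the means were 0.32 ± 2.54 in TCDD and -2.13 ± 3.73 in control arrays, and the difference of 2.45 (SE 1.93; adjusted p by limma 0.709) includes the array at background. For Nmu they were -1.40 ± 1.83 in TCDD and -2.11 ± 1.70 in control arrays, and the difference was 0.71 (SE 1.07; adjusted p by limma 0.865). These differences were smaller than the spread between arrays of the same group. Their 95% intervals ran from -3.62 to 6.49 for Cga, from -1.98 to 6.87 for Tshb and from -1.75 to 3.16 for Nmu. All 3 intervals included 0 and also differences of several log2 units above it, and that of Cga included such differences below it as well.

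Single arrays decided the size of these differences. Without control 2 the log2 fold change of Cga was -0.16 and that of Tshb 0.92, and without control 4 they were 2.86 and 3.93. Without TCDD 2, Nmu was at 0.11, against 1.55 without control 4. The adjusted p of the 3 genes was 0.394 or higher in each of these fits, in which the remaining arrays supply the spread.

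Among the members of smaller range, Pitx1 averaged -0.06 ± 0.11 in TCDD and -0.29 ± 0.10 in control arrays (SD, n = 4 each). Its log2 fold change was 0.23 (SE 0.075, 95% interval 0.054 to 0.40) with an unadjusted p of 0.0162 and a limma adjusted p of 0.320, so it did not pass. It alone of the 7 genes had an unadjusted p under 0.05, as 11.0% of all genes did, so that count of 1 is near the background. Lhb differed by 0.06 (95% interval -0.57 to 0.68), Tbx19 by -0.10 (95% interval -0.50 to 0.30) and Eya3 by 0.0021 (95% interval -0.38 to 0.38), all with a limma adjusted p of 0.886 or higher. The groups did not overlap for 0 of the 7 genes, against 7.31% of all genes. In all, 6 of the 7 log2 fold changes were above 0 and 1 was below, with a median of 0.23, the value of Pitx1, beside a median of -0.01 over all 16574 genes. Cga, Tshb, Nmu and Lhb were high and low on the same arrays, so their directions are not separate, and Eya3 was at 0.0021.

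**Figure D2:**
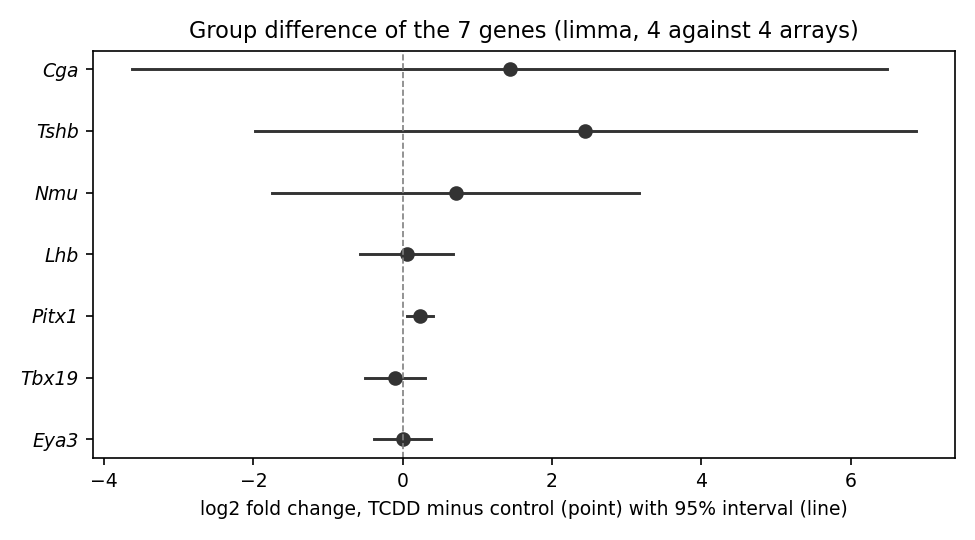
Log2 fold change, TCDD minus control, of the 7 genes (horizontal axis; point, limma estimate; line, 95% interval; 4 arrays in each group). The intervals of Cga, Tshb and Nmu include 0 and reach from -3.62 to 6.49, -1.98 to 6.87 and -1.75 to 3.16, and that of Pitx1 runs from 0.054 to 0.40 before adjustment.

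The arrays ranked alike for the genes that varied. TCDD 2, TCDD 4 and control 4 were the 3 highest arrays for Cga, Tshb, Nmu and Lhb, and control 2 was the lowest for these 4 genes. Among all 17397 genes, 673 (3.87%) had the same 3 arrays highest, and 89 (0.512%) also had control 2 lowest. This order was read from the 4 genes themselves, so their match to it was fixed, and the shares are no test. The correlations over the 8 arrays are descriptions, since covariation was part of the choice of genes, and the arrays share their scaling. They were r = 0.952 (rho = 0.857) between Cga and Tshb, r = 0.926 (rho = 0.905) between Cga and Nmu and r = 0.906 (rho = 0.952) between Tshb and Nmu.

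The correlations were also taken without the most extreme arrays. Without TCDD 2 and control 2, the arrays farthest from the median of Cga, r over the remaining 6 arrays was 0.898 (rho = 0.657) between Cga and Tshb and 0.943 (rho = 0.83) between Cga and Nmu. It was 0.976 (rho = 0.943) between Tshb and Nmu without the same arrays, which left out the array where Tshb was at background. TCDD 4 and control 4 were still the highest arrays in these sets, and control 3 was the third highest for Cga but the lowest for Tshb. With each group centred on its own mean, the 3 correlations were 0.967, 0.922 and 0.915.

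Lhb moved with Nmu (r = 0.941), Tshb (r = 0.866) and Cga (r = 0.849) although its range was 1.12 log2 units, against 9.38 for Cga. Without TCDD 2 and control 2, r between Lhb and Cga over 6 arrays was 0.794 (rho = 0.486). Without TCDD 2 and control 4, the arrays farthest from the median of Nmu, r between Lhb and Nmu was 0.897 (rho = 0.714). Tbx19 came closest to Lhb (r = 0.893) and Nmu (r = 0.810), and Pitx1 to Tshb (r = 0.826). With each group centred on its own mean, Pitx1 was closest to Nmu (r = 0.962) and Lhb (r = 0.954), and its r with Tbx19 was 0.873, against 0.377 without centring. The r of Eya3 with the others lay between 0.326 with Pitx1 and 0.650 with Nmu, and these values moved with the setting. Without control 2, r was 0.826 between Eya3 and Cga and 0.769 between Eya3 and Tshb, whereas normexp background correction gave 0.178 between Eya3 and Nmu. The log2 distance between Cga and Tshb was 2.84, 3.26, 0.64 and 2.98 on TCDD arrays 1 to 4, against 2.82, at least 3.23, 4.44 and 3.27 on control arrays 1 to 4, with Tshb at background on control 2. It was thus alike on TCDD 1, 2 and 4 and on control 1 and 4, and smaller on TCDD 3 and larger on control 3. This distance tracks how far the probes moved together and says nothing of which mRNA was more abundant.

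The genes most like Nmu over the 8 arrays were Apoa4 (r = 0.993), Epcam (r = 0.989), Ddit4l (r = 0.967), Fgfbp3 (r = 0.956) and Espn (r = 0.955), among 17397 genes of which 64 reached r of 0.9. Epcam, an adhesion molecule of epithelial cells, read -3.76, -2.75, -4.18 and -2.91 on TCDD arrays 1 to 4, against -3.81, -4.15, -3.91 and -2.43 on control arrays 1 to 4. Apoa4, an apolipoprotein, was well above background on TCDD 2, TCDD 4 and control 4 alone, at -2.13, -2.39 and -1.46, and Espn, an actin-bundling protein, was well above background on 3 arrays as well. These genes were chosen for likeness to Nmu, so high values on the arrays where Nmu was high follow from the choice. On their other arrays Apoa4 and Espn were not well above background. A second Espn probe gave r = 0.648 with Nmu.

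The genes most like Cga were Ccp110 (r = 0.957), Tshb, Cd53 (r = 0.935), Nme4 (r = 0.929), Nmu, Fcgr3a (r = 0.925), Sp1 (r = 0.924), Tfdp2 (r = 0.923), Epcam (r = 0.920) and Zbed3 (r = 0.919), and 20 genes reached r of 0.9. Apart from Tshb, Nmu and Epcam, these had ranges of 0.24 to 0.68 log2 units, near that of the median gene, and the second probe of Ccp110 gave r = 0.387. The genes most like Tshb were Mmp11 (r = 0.953), Cga, Lyl1 (r = 0.951), Dnai2 (r = 0.926) and Adcy4 (r = 0.925), and 15 genes reached r of 0.9. Apart from Cga, their ranges were 0.54 to 0.68 log2 units.

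Some genes combined likeness with a wide range. Of 572 gene symbols with a range of at least 1.5 log2 units, 9 had r of at least 0.8 with Cga, Tshb and Nmu alike. These limits were chosen after the values were seen. The 9 genes were Epcam, Apoa4, Espn, Fbln5, Elf3, Cldn7, A4galt, Fndc3c1 and Prss8. Cldn7, a tight junction protein of epithelia, Elf3, an epithelial transcription factor, and Prss8, an epithelial serine protease, are among them, as is Fbln5, an elastic fibre protein. Cldn7 was well above background on 4 arrays and Prss8 on 6, so their ranges and likeness include arrays at background. A4galt, a glycosyltransferase, read -7.31, -2.20, -6.76 and -3.40 on TCDD arrays 1 to 4, against -5.06, -6.84, -5.66 and -2.31 on control arrays 1 to 4, and was well above background on 4 arrays.

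**Figure D3:**
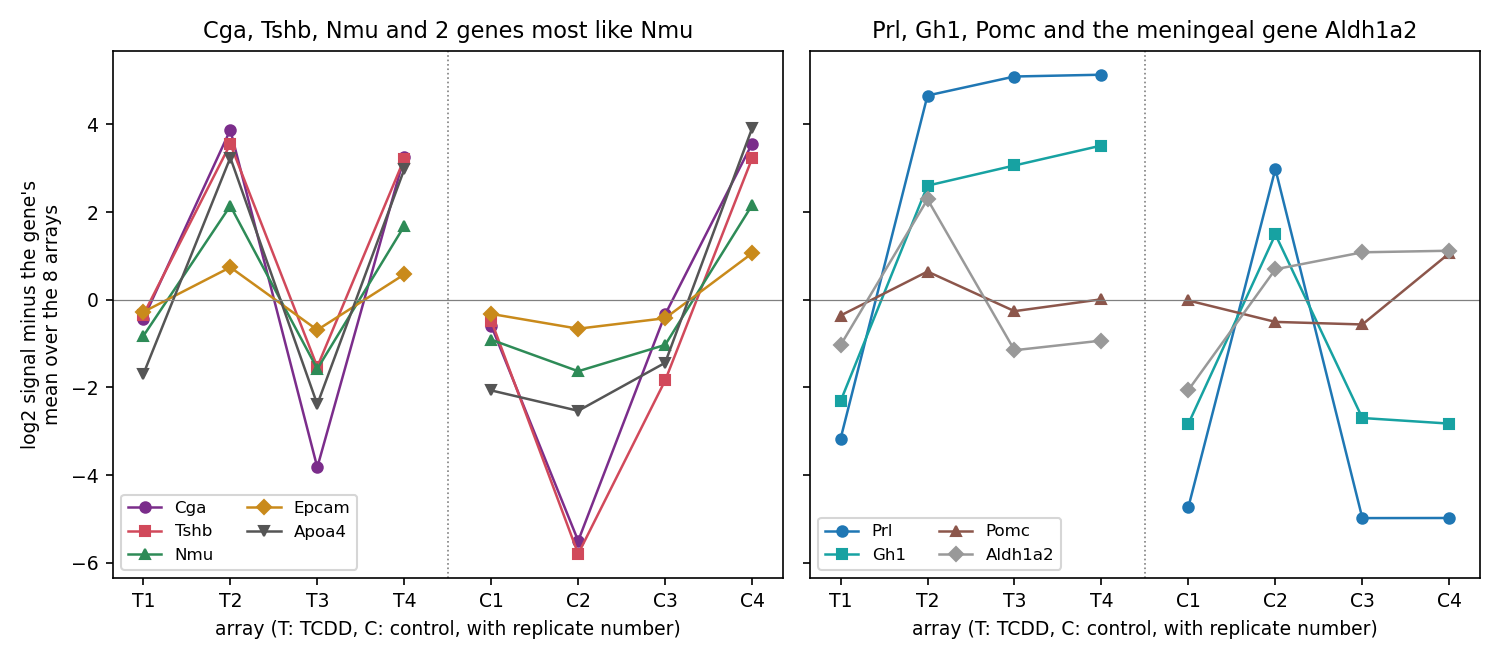
Log2 signal minus the mean of the gene over the 8 arrays (vertical axis) on each array (horizontal axis: T, TCDD; C, control, with replicate number), for Cga, Tshb, Nmu, Epcam and Apoa4 on the left and Prl, Gh1, Pomc and the meningeal gene Aldh1a2 on the right. On the left, T2, T4 and C4 are the high arrays, whereas Prl and Gh1 are high on T2, T3, T4 and C2.

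Markers of the pars tuberalis were present in part. On a list of 15 genes, which includes Cga, Tshb, Nmu, Pitx1 and Eya3, 11 were well above background on all 8 arrays. Cga, Nmu, Pitx1 and Eya3 are among these 11, and 1 gene, Hesx1, an early pituitary factor, was well above background on none. Of all probes, between 61.7% (TCDD 1) and 66.7% (control 2) were well above background on a single array. Those shares count probes on a single array, so they are no like background for genes on all 8 arrays. By the rule for entering the group comparison, 12 of the 15 list genes passed, beside 16574 of all 26269 gene names. Mtnr1a, the melatonin receptor gene, read -5.01, -4.31, -5.00 and -4.43 on TCDD arrays 1 to 4, against -4.63, -5.04, -4.74 and -4.29 on control arrays 1 to 4, so TCDD 2, TCDD 4 and control 4 were its 3 highest arrays too (r = 0.910 with Cga). Tef, Cry1, Tac1 and Gpr83, which hypothalamic neurons express as well, had ranges of 0.18 to 0.32 log2 units and showed no such order. The mean of the 9 measured list genes other than Cga, Tshb, Nmu, Pitx1 and Eya3 lay between -1.50 and -1.02 in TCDD arrays and between -1.42 and -1.02 in control arrays.

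None of the 12 tested genes of that list passed the group comparison, with 7 log2 fold changes above 0 and 5 below and a median of 0.02. Lhx3, a LIM homeobox factor of the pituitary and of motor and interneuron lineages, had the lowest adjusted p. It read -0.91, -1.00, -0.84 and -0.97 on TCDD arrays 1 to 4, against -1.30, -1.19, -1.15 and -1.14 on control arrays 1 to 4, and its groups did not overlap. Its log2 fold change was 0.27 (SE 0.059) with a limma adjusted p of 0.167, and its values did not follow Cga (r = 0.063).

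Prl and Gh1, markers of the pars distalis, the main anterior lobe, followed another order of arrays. Lhb, on the same list, had the same highest arrays and lowest array as Cga (r = 0.849), and Trhr varied over 0.35 log2 units. Prl, prolactin, read -5.74, 2.09, 2.53 and 2.57 on TCDD arrays 1 to 4, against -7.29, 0.42, -7.55 and -7.54 on control arrays 1 to 4, and was well above background on TCDD 2, TCDD 3, TCDD 4 and control 2. Gh1, growth hormone, was well above background on the same 4 arrays, at -2.54, -2.08 and -1.63 on TCDD 2, 3 and 4, and -3.66 on control 2. TCDD 3 and control 2, where Cga was lowest, thus had Prl and Gh1, and control 4, where Cga was high, did not (r with Cga of -0.11 for Prl and -0.07 for Gh1). Of the 12 genes of the pars distalis list, 7 were well above background on 0 of 8 arrays, among them Pou1f1, the factor of pars distalis thyrotrophs, somatotrophs and lactotrophs, and the receptor genes Ghrhr and Gnrhr. The mean of the 3 measured genes other than Lhb (Prl, Gh1 and Trhr) lay between -5.37 and -0.64 in TCDD arrays and between -6.23 and -2.08 in control arrays, and the low ends are bounds, since Prl and Gh1 were at background on 4 arrays.

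Tanycyte and median eminence genes, which mark the tissue next to the pars tuberalis, moved in part with Cga. The mean of 10 such genes was -1.45, -0.71, -1.43 and -1.18 on TCDD arrays 1 to 4, against -1.28, -1.32, -1.31 and -0.62 on control arrays 1 to 4. Control 4, TCDD 2 and TCDD 4 were again the 3 highest arrays. The list was not uniform, with r with Cga of 0.804 for Frzb, 0.80 for Crym, 0.657 for Vim, 0.338 for Gpr50, 0.252 for Vcan, 0.170 for Ptn and 0.15 for Dio2. Frzb, a secreted Wnt antagonist and the highest of these, read -0.77, 0.70, -0.95 and -0.15 on TCDD arrays 1 to 4, against -0.96, -0.89, -0.85 and 1.02 on control arrays 1 to 4. Of the list of 12, 1 gene, Slc17a8, was not well above background on any array. None of its 9 tested genes passed, and their median log2 fold change was -0.06. Genes of pituicytes and the neural lobe, a list that shares Rax and Vcan with the tanycyte list, had the same 3 highest arrays. Their mean over 5 genes was -2.15, -1.03, -1.86 and -1.52 on TCDD arrays 1 to 4, against -1.93, -1.77, -1.77 and -0.87 on control arrays 1 to 4, with r of 0.755 between Scn7a and Cga. None of the 4 tested genes of this list passed, and their median log2 fold change was 0.04. The part of these tissues, or of the dissection, in the variation of Cga, Tshb and Nmu was not tested.

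Genes of the meninges, which cover the same surface, had another order. The mean of 10 genes was -2.50, 0.53, -2.28 and -2.19 on TCDD arrays 1 to 4, against -2.28, -0.85, -0.67 and -0.59 on control arrays 1 to 4, with TCDD 2 highest and TCDD 4 among the low arrays. All 10 were tested and none passed, with 10 log2 fold changes below 0 and a median of -0.49. That median rested on single arrays, at -1.26 without TCDD 2, -0.92 without control 1, and between -0.28 and -0.20 without TCDD 1, TCDD 3, TCDD 4, control 3 or control 4. Pomc, made by arcuate neurons and by pituitary melanotrophs and corticotrophs, read 2.64, 3.65, 2.74 and 3.02 on TCDD arrays 1 to 4, against 2.99, 2.50, 2.44 and 4.07 on control arrays 1 to 4. Its 3 highest arrays were those of Cga, with TCDD 4 just above control 1 (r = 0.75 with Cga). Pax7 and Avpr1b, markers of melanotrophs and corticotrophs, were well above background on 0 of 8 arrays.

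**Figure D4:**
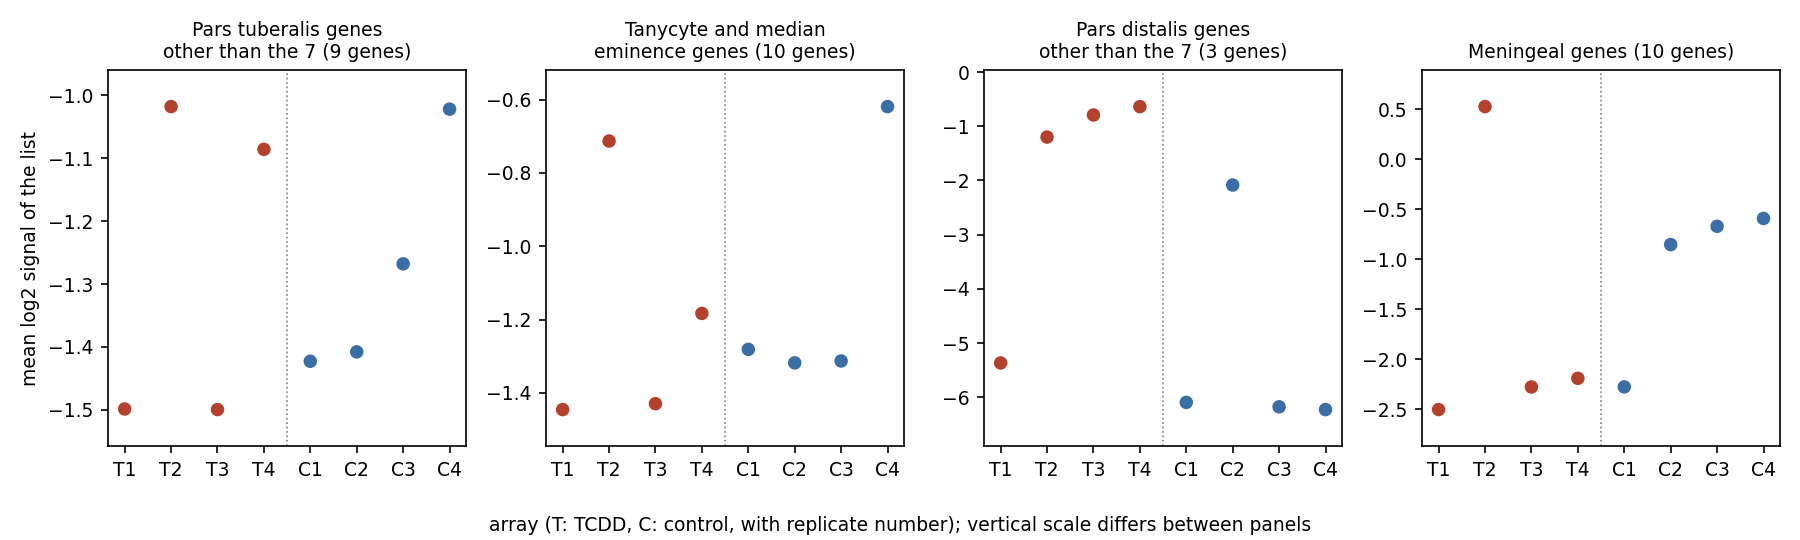
Mean log2 signal of the genes of 4 marker lists (vertical axes, with a different scale in each panel) on each array (T, TCDD; C, control, with replicate number). The pars tuberalis and tanycyte lists are highest on T2, T4 and C4, the pars distalis list on T2, T3, T4 and C2, and the meningeal list on T2.

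The genes on which thyrotropin acts in this region were measured without a difference that passed. Of 18 genes of thyrotropin and thyroid hormone action, 17 were tested and none passed, with 6 log2 fold changes above 0 and 11 below and a median of -0.08. Tshr, the thyrotropin receptor gene, differed by -0.08 (SE 0.18; adjusted p by limma 0.917). Dio2, which encodes the enzyme that activates thyroid hormone, differed by -0.15 (SE 0.19; adjusted p by limma 0.833). Dio3, whose enzyme inactivates thyroid hormone, read -2.80, -3.11, -4.41 and -3.06 on TCDD arrays 1 to 4, against -3.63, -3.12, -2.75 and -1.27 on control arrays 1 to 4, with TCDD 3 lowest and control 4 highest. The groups differed by -0.65 (SE 0.53; adjusted p by limma 0.720). Trh, the releasing hormone gene, had a log2 fold change of 0.27, Klf9, a thyroid hormone target, -0.25 and Trhde, the enzyme that degrades the releasing hormone, -0.16, with limma adjusted p of 0.439, 0.271 and 0.391.

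The remaining lists held no gene that passed. Of 9 glycoprotein hormone and receptor genes, 6 were tested and none passed, with 4 log2 fold changes above 0 and 2 below and a median of 0.10. Of 4 genes of the neuromedin system, Nmu alone was tested, and the receptor genes Nmur1 and Nmur2 were well above background on 0 of 8 arrays. Of 27 pituitary transcription factors, 13 were tested and none passed, with 6 log2 fold changes above 0 and 7 below and a median of -0.02. Of 20 clock and melatonin genes, 17 were tested and none passed, with 12 above 0, 5 below and a median of 0.07. Among them Nr1d2, Hlf and Rorb lay at unadjusted p under 0.05, at log2 fold changes of 0.20, 0.25 and 0.24, so 3 of 17 genes did, beside 11.0% of all genes. The median of this list was -0.0051 with normexp background correction.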

How the data were processed

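Per the labels' protocols, total RNA of hypothalamus kept in RNAlater was extracted with RNeasy kits, amplified to Cy3-labelled cRNA and hybridised in 1 colour to an Agilent Whole Rat Genome array. The deposited scanner files hold spot intensity on a linear scale, background-subtracted and detrended within the array by the scanner software (Agilent Feature Extraction, version 10.7.1.1), as the file headers state, with probe coordinates on build rn4. The authors also deposited a table of intensity values, whose 8 columns each have a median of 65.1 and whose log2 values followed those of the scanner files (r at least 0.999 on each array). How it was normalized or centred is not stated, and it was used only as an alternative.

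Control spots and spots marked as outliers were left out, spots of a probe were averaged, and log2 was taken of the deposited processed signal over the array's 75th percentile. Probes well above background on every TCDD array or on every control array were tested, and the brightest probe stood for its gene. Groups came from the labelled agent and were compared with limma 3.58.1 in R 4.3.3 (2-sided, Benjamini-Hochberg threshold 0.05); the code was tested on simulated data. The number of arrays limits the precision, and the design text gives 4 dams in each group but does not say how the samples were taken. Alternatives were normexp background correction (offset 50), quantile normalization, the authors' table, no filter, the mean of a gene's probes, limma with trend and robust, a block for the replicate number, and leaving out single arrays in turn.

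The named genes were the 7 genes, every list gene past the threshold, defining markers of 13 lists, and the 10 genes most like Cga and the 5 most like Tshb and Nmu by Pearson r. The 7 genes and the lists were chosen with earlier results of these data known, and the other list genes given with values were picked after their values were seen. Deviations of same-numbered samples from their group means correlated at 0.228, -0.0033, -0.046 and 0.104, so the numbers, which are slide positions, were not taken to pair the samples. Exon and UTR positions are not given, since no annotation of rn4 was used.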

Additional observations from a re-analysis of the deposited data

Results flagged for a closer look

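Apoa4, the gene most like Nmu, had 1 control sample far from the others. It read -7.07, -2.13, -7.76 and -2.39 on TCDD arrays 1 to 4, against -7.44, -7.90, -6.81 and -1.46 on control arrays 1 to 4. The probe was well above background on TCDD 2, TCDD 4 and control 4 alone. The gap between control 4 and the nearest control array was 0.830 of the whole control range, just past Dixon's 95% limit for 4 samples. This was 1 of 46 groups examined over 23 genes, and chance alone marks about 1 in 20 groups of genes not chosen for their pattern. Apoa4 was chosen for its likeness to Nmu, whose own gap at control 4 was 0.810 of the control range. A high control 4 was therefore part of the choice, and the flag is no separate support. The other control values of Apoa4 were not well above background.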

How the results depend on the processing

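The count of genes past the threshold was 3 and moved with most settings, to 22 with normexp background correction and 34 with limma's trend and robust options. It was 0 with no filter (2016 genes at an unadjusted p under 0.05) and 0 with the replicate block (2108 at an unadjusted p under 0.05), and ranged from 0 to 7 when each array was left out; the cause was not tested. It was 0 without TCDD 2, TCDD 3, TCDD 4, control 2 or control 4 (unadjusted p under 0.05 for 1799, 1430, 1654, 1419 and 2122 genes), and 7 without control 3. None of the 7 genes and no gene of the lists passed in any of these fits, and the replicate block changed no other call. The log2 fold change of Eya3 turned to -0.086 with normexp, -0.035 with quantile normalization and -0.035 with the authors' table, and ran from -0.13 to 0.099 with arrays left out; that of Cga ran from -0.16 (without control 2) to 2.95, of Tbx19 from -0.21 to 0.046 (without control 4) and of Lhb from -0.093 to 0.30. Those of Tshb (0.92 to 3.93), Nmu (0.11 to 1.55) and Pitx1 (0.18 to 0.28) stayed above 0. The range of Tshb was 6.03 with normexp, against 9.35, and includes control 2, where the probe was not well above background. No correlation between the 7 genes changed sign in any setting. With 4 arrays in a group and within-group SDs of 1.70 to 3.73 for Cga, Tshb and Nmu, differences of several log2 units could go unresolved.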

Other observations

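Kcne2, a potassium channel subunit abundant in choroid plexus, read -2.02, -2.06, -1.99 and -2.18 on TCDD arrays 1 to 4, against -2.31, -2.34, -2.41 and -2.25 on control arrays 1 to 4. Its groups did not overlap, and its log2 fold change of 0.26 (SE 0.060) had a limma adjusted p of 0.173, which did not pass. Ttr, the transthyretin gene and the most abundant choroid plexus transcript, read 1.03, 2.49, -0.50 and -0.04 on TCDD arrays 1 to 4, against 0.83, 0.27, 0.05 and 1.77 on control arrays 1 to 4, with TCDD 2 and control 4 highest and TCDD 4 among the low arrays. Its log2 fold change was 0.015 (SE 0.66). Slc6a3, the dopamine transporter gene of the arcuate list, read -3.12, -1.96, -4.75 and -3.51 on TCDD arrays 1 to 4, against -3.18, -0.70, -0.12 and -4.15 on control arrays 1 to 4. Its highest arrays were control 3 and control 2, on neither of which Cga was high.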
